A study of Mus musculus with 4 samples.

Results

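The nuclei described here were those that the study's authors had placed in GCmat1, the first of their mature granule cell clusters, and to which they had given a pseudo-time, taken from the libraries collected 4 weeks (w4) and 8 weeks (w8) after labeling. They numbered 399 nuclei in w4 and 2711 in w8, or 3110 of the 14367 nuclei in the whole table. A further 4 GCmat1 nuclei in w4 and 216 in w8 had no pseudo-time and were left out (the authors fitted no pseudo-time to GCmat1 nuclei in which ventral genes were strongly expressed), and 17 GCmat1 nuclei in w1 and 9 in w2 were not compared. The mice carried a tamoxifen-inducible Cre and the CAG floxStop-Sun1/sfGFP reporter, in which tamoxifen switches on a nuclear membrane fluorescent protein in neural stem and progenitor cells and in every cell that later descends from them. All were 6 to 8 weeks old and received tamoxifen, and the groups are labeled by the interval to dissection alone. For each week the left dentate gyri of 4 mice, males and females together, were pooled, fluorescent nuclei were sorted, and 1 droplet library of nuclear RNA was made. Each week was thus 1 library of pooled animals. No test between weeks was possible, and every interval given below is a 95% interval that covers counting error only, not the difference between mice.

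Granule cells are the principal neurons of the dentate gyrus, and they are among the few neurons of the mammalian brain that are still produced in adult life. Radial glia-like cells (RGL) give rise to progenitors, neuroblasts and immature neurons, which then extend dendrites and mossy fibers, acquire glutamatergic inputs and become hard to tell from granule cells born in development. The comparison of w4 with w8 within GCmat1 asks how nuclei assigned to one mature state differ with the interval since labeling. The labels do not give the age of a neuron.

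The nuclei of the 2 weeks were unlike in ways other than the interval since labeling. Pseudo-time, a position along the path from stem cell to mature neuron that the authors computed from the expression of these same nuclei, had a median of 28.6 in w4 and 30.1 in w8. It was below 29 in 324 of 399 nuclei of w4 (81.2%, exact interval 77.0 to 84.9%) and in 117 of 2711 nuclei of w8 (4.32%, exact interval 3.58 to 5.15%). The sex of a nucleus was read from transcripts of the sex chromosomes, which were then left out of every other measurement. Of the nuclei with a call, 36 of 388 were male in w4 (9.28%, exact interval 6.58 to 12.6%) and 2109 of 2433 in w8 (86.7%, exact interval 85.3 to 88.0%). The same imbalance was present in the other cells of both libraries, with 15.6 and 81.5% male nuclei among young granule cells (GCyoung) and 10 and 85.9% among RGL, in w4 and w8. The authors had earlier removed a group of w4 nuclei, most of them male by such transcripts, which they proposed could come from a single mouse. The w4 nuclei used here are therefore not the whole pool. Week, sex, the individual mice, their age at dissection and the library therefore cannot be told apart in the pooled values. Many results are given also for the 352 female nuclei of w4 and the 324 of w8, which still differed in median pseudo-time (28.6 and 29.7). The depth was alike, with a median of 8600 unique transcript molecules (UMIs) per nucleus in w4 and 7846 in w8, and 3561463 and 22925134 UMIs in all. Transcripts of the mitochondrial genome stood at 103 CPM (UMIs of a gene per 1000000 UMIs) in w4 (92.5 to 114) and 28.7 CPM in w8 (26.6 to 31.0). They differed in the other cells of both libraries too, at 106 and 31.4 CPM in GCyoung and 168 and 47.8 CPM in RGL. The libraries shared 5 nucleus barcodes, 2 of them between the GCmat1 nuclei compared here.

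**Figure D1:**
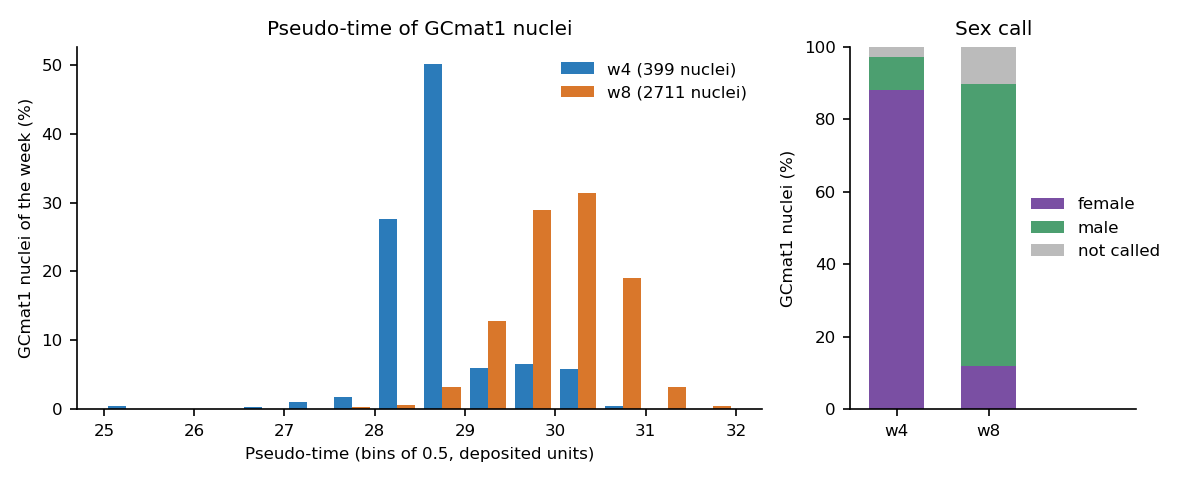
Left, the percentage of GCmat1 nuclei of each week in bins of 0.5 pseudo-time units; right, the percentage of the same nuclei called female, male or neither. Most w4 nuclei lay between 28 and 29 and most w8 nuclei above 29, and 352 of 399 w4 nuclei were female against 324 of 2711 in w8.

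Across the 7742 autosomal genes with a mean of at least 10 CPM over the 2 weeks, most levels were close to each other, and the median log2 ratio of w8 over w4 was −0.01. A total of 397 genes were at least 1.5-fold higher in w8 (5.13%) and 391 at least 1.5-fold lower (5.05%). Within the female nuclei alone, 451 of the same genes were at least 1.5-fold higher in w8 (5.83%) and 398 at least 1.5-fold lower (5.14%). Of the 397 higher genes 245 were past the fold in female nuclei too (61.7%), and of the 391 lower genes 216 (55.2%), and 178 and 155 were past it in female and in male nuclei alike. These overlaps are no independent evidence. The female nuclei are 352 of the 399 in w4, and both sexes are parts of the nuclei by which the genes were counted. These are counts past a fold and not counts of changed genes, since at the lower limit of 10 CPM a gene had only about 35.6 UMIs in w4. At 2-fold the counts were 100 and 96.

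**Figure D2:**
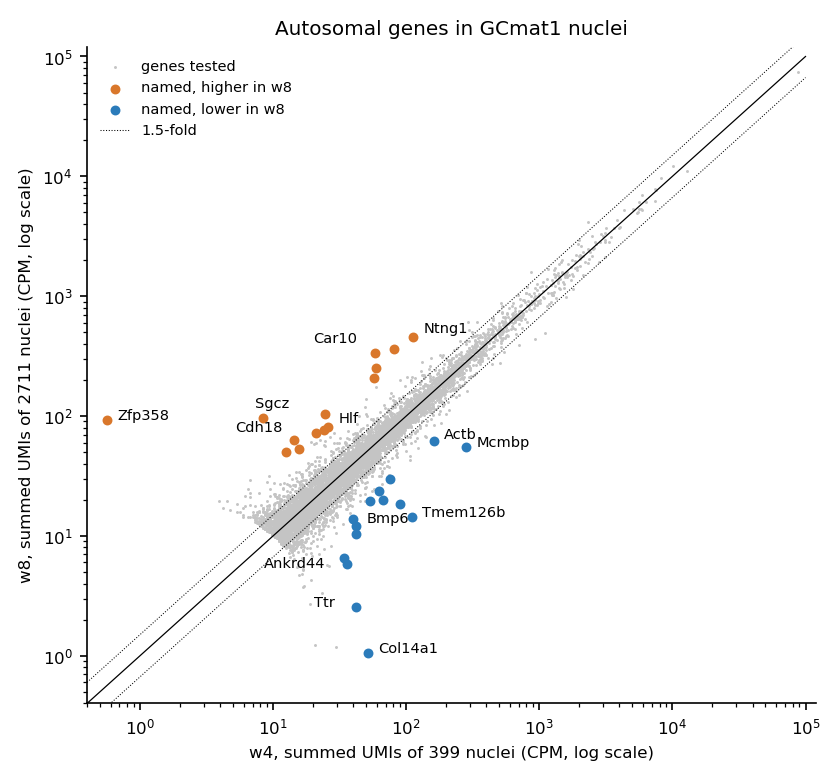
Level of each gene in w4 (x axis) and w8 (y axis), in CPM of the summed UMIs of the GCmat1 nuclei, both axes logarithmic; the solid line marks equality and the dotted lines 1.5-fold. Car10 and Ntng1 stand above the diagonal at 58.7 and 112 CPM in w4 against 334 and 459 in w8, and Zfp358 and Col14a1 lie farthest from it.

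The defining transcripts of granule cells were present in both weeks, and all 11 granule cell markers were measured. Prox1, the homeodomain factor that specifies granule cells, stood at 370 CPM in w4 and 306 in w8, and Rbfox3, the neuronal nuclear antigen, at 617 and 630 CPM. Calb1, the calcium buffer calbindin of mature granule cells, was at 142 and 118 CPM. Beside 5.13% of all genes higher and 5.05% lower, 2 of the 11 markers were at least 1.5-fold higher in w8 (Ntng1 and Trpc6) and 2 at least 1.5-fold lower (Dsp and Tdo2), although Tdo2 had the opposite direction in female nuclei, with 22.3 CPM in w4 and 25.1 in w8. Markers of other cell types were low in sum, or their sum rested mostly on 1 or a few genes. The summed level of 11 vascular markers was 5.62 CPM in w4 and 5.80 CPM in w8, and that of 11 microglia markers 49.7 and 56.6 CPM. The 15 interneuron markers summed to 2003 and 2784 CPM, nearly all of it from Adarb2 (1942 and 2738 CPM), and of the enzymes that make GABA, Gad1 was at 43.8 and 38.5 CPM and Gad2 at 1.12 and 0.742 CPM. Of the oligodendrocyte markers, which summed to 358 and 342 CPM, St18 made up 296 and 263 CPM, and of the myelin genes, Mbp was at 50.8 and 68.2 CPM and Mog had 5 and 9 UMIs, a ratio of 0.280 in CPM. The markers of oligodendrocyte precursors (954 and 902 CPM, mostly Tnr) had 1 of 2 measured members past the fold, Lhfpl3, which was lower (30.6 and 19.7 CPM, but with a log2 ratio of 1.72 in male nuclei), and those of mossy and pyramidal cells (2435 and 1814 CPM) had 1 of 3, Sv2c, which was higher. These counts rest on too few members to be set against the shares over all genes. The part of such cells in the results was not tested.

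Of 14 genes with the clearest excess in w8, several act at the neuronal surface and the synapse. Ntng1 (ENSMUSG00000059857, chromosome 3, 109780040 to 110144011, GRCm38) encodes netrin-G1, a lipid-anchored adhesion protein of axons. It had 399 UMIs in w4, or 112 CPM (101 to 124), and 10517 UMIs in w8, or 459 CPM (450 to 468), a level 4.09-fold higher in w8 (interval 3.70 to 4.54). In female nuclei it was at 113 and 362 CPM, 3.21-fold higher (2.84 to 3.63). Car10 (chromosome 11, 93098028 to 93601749) encodes a carbonic anhydrase-related protein without enzyme activity that binds neurexins. Its level was 58.7 CPM in w4 (51.0 to 67.2) and 334 CPM in w8 (326 to 341), a ratio of 5.69 (4.96 to 6.56) that was 5.26 (4.49 to 6.20) in female nuclei. Both genes thus differed by several fold in all nuclei and in the female nuclei, which are part of them.

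The share of nuclei in which such a transcript was found differed as well. After each nucleus had been thinned at random to 2000 UMIs, Ntng1 was detected in 17.5% of w4 nuclei (13.9 to 21.6%) and 48.5% of w8 nuclei (46.6 to 50.4%), against 36.1 and 75.9% without thinning. Car10 was detected in 11.0 and 37.7% of the thinned nuclei, against 23.6 and 65.9% without thinning. In 45 oligodendrocyte nuclei of the series, which should lack both and had a median of 4801 UMIs, Ntng1 was found in 0, which allows a share of nuclei with a UMI of up to 6.67% (3 counts of the total, counting error only), and Car10 in 2.22%.

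Sgcz, which encodes zeta-sarcoglycan, was at 8.42 CPM in w4 (5.68 to 12) and 95.6 CPM in w8 (91.6 to 99.7), a ratio of 11.3 that was 8.02 in female nuclei. It was also at 46.4 CPM in the GCyoung nuclei of w4, above its level in the GCmat1 nuclei of the same library. Tenm4, a teneurin that forms adhesive contacts between neurons, was at 118 CPM in GCyoung of w4, 24.4 in GCmat1 of w4 and 103 in GCmat1 of w8, and its ratio of 4.20 in GCmat1 was 2.33 (1.75 to 3.13) in female nuclei. Cdh18, a classical cadherin, was at 14.3 and 63.2 CPM, a ratio of 4.41 (3.34 to 5.96) that was 2.83 (1.98 to 4.10) in female nuclei. Gsg1l, an auxiliary subunit of AMPA receptors, was at 21.1 and 71.7 CPM, a ratio of 3.41 (2.7 to 4.35) that was 2.73 in female nuclei. Lrrc3b, a leucine-rich repeat membrane protein, was at 24.1 and 77.1 CPM, a ratio of 3.19 that was 2.07 in female nuclei.

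The remaining genes of this group act in the nucleus or are of less certain role. Hlf, a PAR-domain transcription factor, was at 25.8 CPM (20.8 to 31.7) in w4 and 80.6 CPM (77.0 to 84.4) in w8, a ratio of 3.12 that was 1.95 (1.48 to 2.6) in female nuclei. Trps1, a GATA-type repressor, was at 12.4 and 49.9 CPM. Zfp804b, a zinc-finger gene, was at 57.3 and 206 CPM with a similar ratio in female nuclei (3.59 in all, 3.72 in female). Snhg11, a noncoding RNA that hosts small nucleolar RNAs, was at 81.1 and 359 CPM, and its ratio of 4.42 was 2.72 in female nuclei. Prr16 was at 59.2 and 252 CPM. The histone gene Hist1h2be was at 15.7 and 53.4 CPM, and its reads may be shared with near-identical histone copies.

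**Figure D3:**
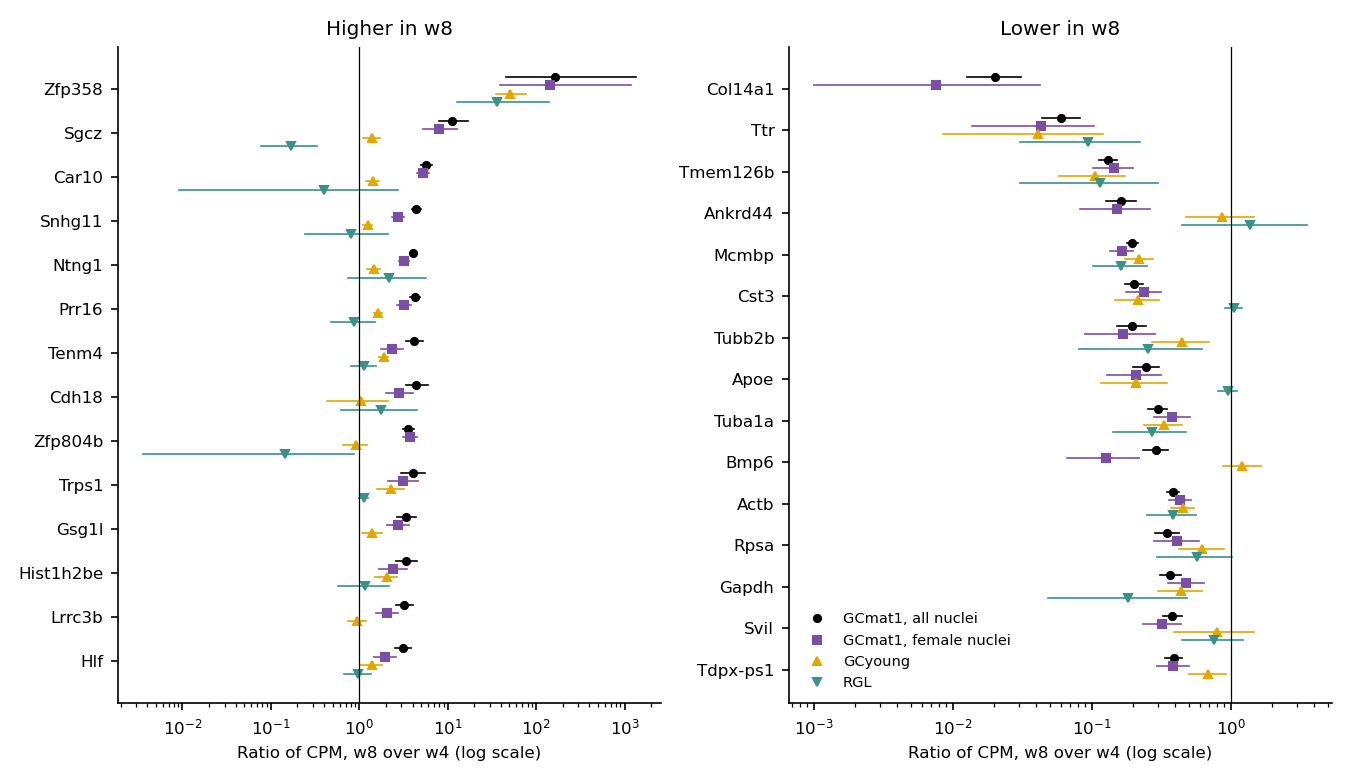
Ratio of CPM in w8 over w4 (log axis) for 14 named genes higher and 15 lower in w8, in all GCmat1 nuclei, female GCmat1 nuclei, GCyoung nuclei and RGL nuclei; bars are 95% counting intervals, and a ratio with 0 UMIs in either week is not drawn. Ntng1 and Car10 had ratios of 4.09 and 5.69 in GCmat1 and 1.46 and 1.42 in GCyoung. Zfp358, Tmem126b and Mcmbp lay on the same side in all 4 sets, as did Ntng1, whose interval in RGL included 1. Car10 was below 1 in RGL, with 1 UMI there in w8.

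The w8 over w4 ratio of each of these 14 genes was smaller among GCyoung nuclei of the same libraries, 1979 in w4 and 188 in w8. In GCyoung, Ntng1 was at 74.2 CPM in w4 and 108 in w8, a ratio of 1.46 (1.22 to 1.72), and Car10 at 71.0 and 101 CPM, a ratio of 1.42 (1.19 to 1.69). Cdh18 was at 5.38 and 5.58 CPM there, and Zfp804b at 33.8 and 30.7 CPM. Apart from Zfp358, described below, the largest ratios in GCyoung were those of Tenm4, 1.90 (1.68 to 2.14), Trps1, 2.29 (1.60 to 3.2), and Hist1h2be, 2.04 (1.52 to 2.7). The 14 genes were chosen by their ratio in GCmat1, so smaller ratios in another cluster are no evidence of a difference between clusters. Such differences were not tested.

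Within each week several of the same genes differed along pseudo-time, which is a description and no independent evidence because pseudo-time was computed from expression. Ntng1 was at 68.5 CPM in w4 nuclei below a pseudo-time of 29 and at 294 CPM in the 75 w4 nuclei at or above it, and in w8 at 199 and 468 CPM. Car10 went from 40.7 to 134 CPM within w4 and from 144 to 340 CPM within w8. Gsg1l was at 6.26 and 83.0 CPM (62.9 to 108) in w4 and at 26.4 and 73.3 CPM (69.7 to 76.9) in w8, so that beyond 29 the levels of the weeks lay within counting error of each other. When the weeks were compared within bins of 0.5 units, weighted by the w4 nuclei, the log2 ratio was 1.32 for Ntng1 (2.03 without matching), 1.28 for Car10 (2.51 without) and 2.11 for Tenm4 (2.07 without). It was −0.06 for Zfp804b, against 1.85 without matching. Matched values are given without intervals, here and below. Among female nuclei the bin from 28.5 held 177 nuclei of w4 but only 22 of w8.

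**Figure D4:**
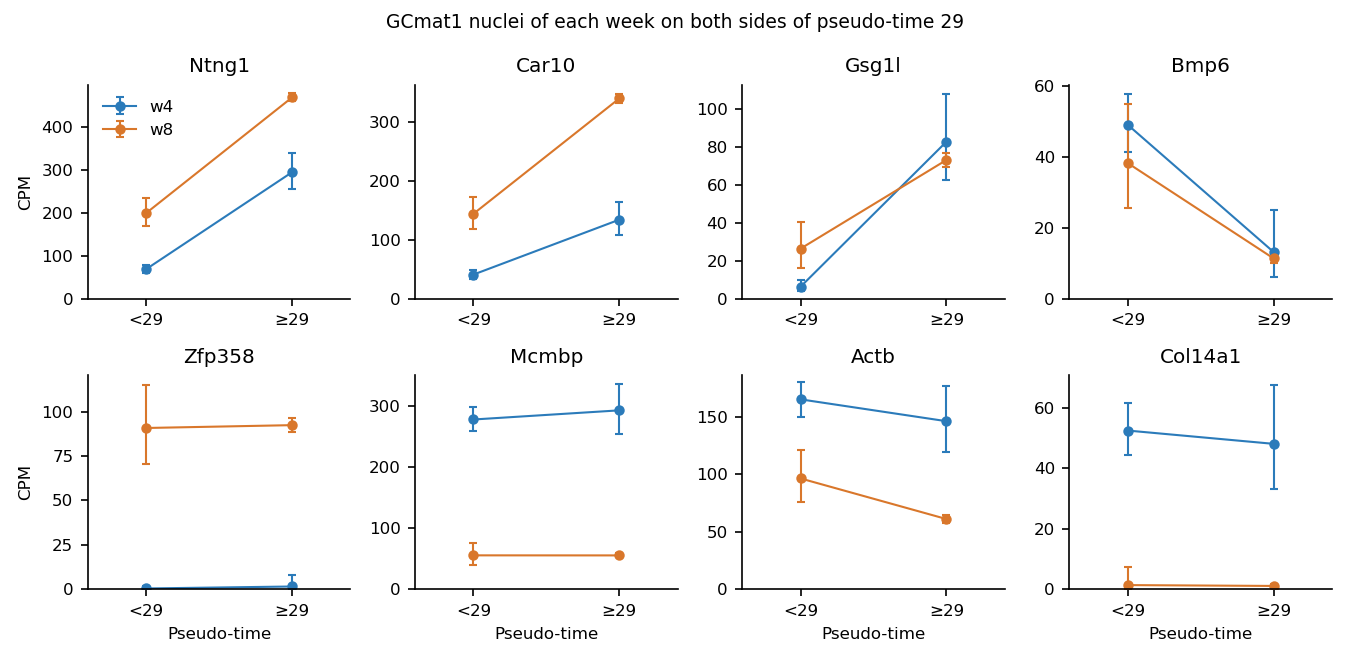
CPM of 8 genes, chosen after their values were seen, in the w4 and w8 GCmat1 nuclei below and at or above a pseudo-time of 29 (324 and 75 nuclei in w4, 117 and 2594 in w8); bars are exact Poisson 95% intervals. The levels of Ntng1, Car10, Gsg1l and Bmp6 varied along pseudo-time within each week, and those of Zfp358, Mcmbp and Col14a1 differed between weeks at either position.

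Bmp6, Ankrd44 and Svil were among the 15 genes with the clearest deficit in w8. Bmp6, a bone morphogenetic protein ligand, was at 42.1 CPM in w4 (35.6 to 49.4) and 12.2 CPM in w8 (10.8 to 13.7), 3.46-fold lower (2.82 to 4.24). In female nuclei it was at 41.1 and 5.17 CPM. Its ratio in GCyoung was 1.21 (0.875 to 1.64), and in GCmat1 it was at 49.0 and 13.1 CPM on either side of pseudo-time 29 in w4 and at 38.2 and 11.3 CPM in w8. Ankrd44, an ankyrin-repeat subunit of protein phosphatase 6, was at 35.9 and 5.85 CPM, 6.15-fold lower (4.79 to 7.89), and at 12 and 10.5 CPM in GCyoung. Svil, which encodes the actin-binding protein supervillin, was at 62.6 and 23.8 CPM, and at 9.63 and 7.67 CPM in GCyoung. Among GCyoung and GCmat1 of both weeks, these 3 genes had their highest level in the GCmat1 nuclei of w4.

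Cntnap5b, a contactin-associated adhesion protein, was among the most abundant genes past the fold, with 1108 CPM in w4 (1074 to 1143) and 489 CPM in w8 (480 to 498), 2.27-fold lower (2.18 to 2.35). In female nuclei it was at 1107 and 485 CPM, and in GCyoung at 673 and 675 CPM. The pseudogene Tdpx-ps1, at 76.1 and 29.6 CPM, lies inside Cntnap5b on the opposite strand, and whether its reads belong to that gene was not tested.

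A separate set of genes differed between the weeks in other cells of the same libraries too. Zfp358, a zinc-finger gene (chromosome 8, 3493138 to 3497208), had 2 UMIs in all GCmat1 nuclei of w4, or 0.562 CPM (0.0680 to 2.03), and 2120 UMIs in w8, or 92.5 CPM (88.6 to 96.5). In GCyoung it was at 2.09 and 107 CPM and in RGL at 2.94 and 105 CPM. Col14a1, a fibril-associated collagen, was at 51.7 CPM in w4 and 1.05 CPM in w8. It had 790 UMIs in GCyoung and 80 in RGL of w4, and 0 in either cluster of w8. Mcmbp, which binds the replicative MCM helicase, was at 281 CPM (264 to 299) and 55.2 CPM (52.2 to 58.4), 5.09-fold lower, with ratios of 0.220 (0.174 to 0.275) in GCyoung and 0.164 (0.102 to 0.251) in RGL. Tmem126b, an assembly factor of respiratory complex I, was at 110 and 14.4 CPM, with ratios of 0.105 in GCyoung and 0.114 in RGL. The direction of these 4 genes was the same in female nuclei, in male nuclei and at matched pseudo-time, although Zfp358 had 0 UMIs in the male nuclei of w4 and so no ratio there. In female nuclei Zfp358 was at 0.637 and 90.4 CPM and Mcmbp at 281 and 46.5 CPM. For them the week cannot be told apart from the mice and the library.

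Ttr, Cst3 and Apoe, which other cells of the brain express strongly, were also among the 15 lower genes. Ttr, transthyretin, a secreted carrier protein of the choroid plexus, was at 41.8 CPM in w4 and 2.53 CPM in w8, and at 50.7 and 2.09 CPM in GCyoung. Cst3, the protease inhibitor cystatin C, was at 90.4 and 18.3 CPM in GCmat1 and at 104 and 22.3 CPM in GCyoung, whereas its ratio in RGL was 1.05 (0.914 to 1.20). Apoe, the main lipid carrier of astrocytes, was at 42.1 and 10.4 CPM in GCmat1, with a ratio of 0.952 (0.814 to 1.11) in RGL, where its w4 level was 680 CPM. After thinning, Ttr was found in 8.27% of GCmat1 nuclei in w4 and 0.627% in w8. Neither share was above that in the 45 oligodendrocyte nuclei of the series, 13.3% (5.05 to 26.8%). Those nuclei were not split by week, so their share is not the background of either library. Mitochondrial transcripts were lower as well, as given above. The part of RNA from outside the nucleus in these values was not tested.

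The genes of the cytoplasmic ribosomal proteins, which build the subunits of the ribosome, were on the lower side together. Of 75 members, 56 were measured, 40 were at least 1.5-fold lower in w8 and none higher, with a median log2 ratio of −0.75, beside 5.05 and 5.13% of all genes tested. Another 4 members were listed at 0 in both weeks. Every one of the 56 had a ratio below 1. Their summed level was 1425 CPM in w4 and 883 CPM in w8. Rpl23 was at 29.5 and 10.6 CPM, and Rps3a1 at 33.7 and 12.6 CPM. In female nuclei 28 of the 56 were at least 1.5-fold lower and the median was −0.57. The median log2 ratio of the same genes was −0.62 in GCyoung and −0.89 in RGL, beside −0.01 and −0.17 over all genes tested. Rpsa, a protein of the small ribosomal subunit, was at 39.6 and 13.7 CPM. Near-identical processed pseudogenes exist for many of these genes, and for Actb and Gapdh, so that their counts are uncertain.

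Because these genes lay on one side together, their promoters are shown. The core CCGGAAG bound by ETS-family factors, searched on both strands in windows from 250 bases before to 50 bases after the start of transcription (RefSeq, GRCm38.p6), was present in 17 of 51 windows of the 42 ribosomal protein genes that matched, of 56 measured (33.3%), and in 2910 of 32851 windows of all genes (8.86%). Those windows include genes that were not measured here, and the share among the genes tested was not taken. A match is a description of the letters and not a bound site. Whether the core has a part in the difference between weeks was not tested. The 100 bases before the start are given for 3 of the genes past the fold that have the core there, with the core or its reverse complement in capitals.
Rps3a1 (chromosome 3, 86142669 to 86142768, minus strand): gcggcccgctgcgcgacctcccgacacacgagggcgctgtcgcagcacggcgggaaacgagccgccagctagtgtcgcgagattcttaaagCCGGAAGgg
Rpl19 (chromosome 11, 98026610 to 98026709, plus strand): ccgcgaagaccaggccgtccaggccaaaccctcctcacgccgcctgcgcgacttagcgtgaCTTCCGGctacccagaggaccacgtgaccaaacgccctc
Rpl37 (chromosome 15, 5116513 to 5116612, plus strand): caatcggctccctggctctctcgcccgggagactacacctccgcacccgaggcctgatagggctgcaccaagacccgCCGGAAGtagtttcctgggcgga
Rpl19 was at 24.1 CPM in w4 and 12 in w8, and Rpl37 at 17.4 and 8.94 CPM.

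The list of nuclear-encoded respiratory chain and ATP synthase genes holds assembly factors, such as Ndufaf5, beside subunits. Of its 58 measured members, 16 were at least 1.5-fold lower in w8 and 1 (Atp5s) higher, beside 5.05 and 5.13% of all genes. Of the 58, 10 had a ratio above 1, and the median log2 ratio was −0.33. It was −0.19 in female nuclei and −0.47 in GCyoung. Ndufb9, a complex I subunit, was at 35.4 and 16.8 CPM. The 13 protein genes of the mitochondrial genome, of which 5 were listed at 0 in both weeks, summed to 37.6 and 6.46 CPM. Their sum was 41.1 and 4.88 CPM in GCyoung and 66.3 and 22.3 CPM in RGL. Of 17 heat-shock and stress genes, 5 were lower and none higher, among them the chaperone Hsp90ab1 at 140 and 66.3 CPM. Their median log2 ratio was −0.27 in GCmat1, −0.16 in GCyoung and −0.47 in RGL. Over all genes tested it was −0.01, −0.01 and −0.17. The cytoskeletal Actb was at 161 CPM (148 to 175) and 62.0 CPM (58.8 to 65.3), with ratios of 0.433 in female nuclei, 0.454 in GCyoung and 0.384 in RGL. The tubulins Tuba1a (66.8 and 20.0 CPM) and Tubb2b (34.0 and 6.59 CPM), which build the microtubules of growing neurites, and the glycolytic enzyme Gapdh (53.1 and 19.5 CPM) were lower as well. Tubb2b had log2 ratios of −1.16 in GCyoung and −1.97 in RGL.

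**Figure D5:**
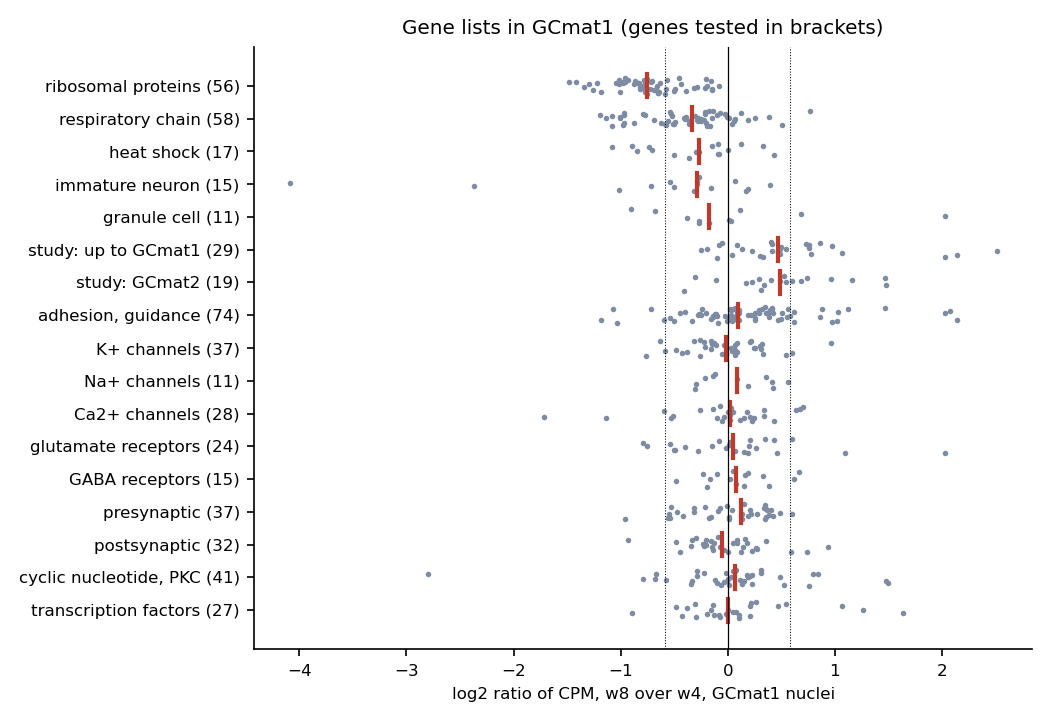
log2 ratio of w8 over w4 in GCmat1 for each measured gene of 17 lists (points) with the median of the list (red bar); dotted lines mark 1.5-fold. The ribosomal protein genes all lie below 0 with a median of −0.75, and the channel and receptor lists have medians between −0.02 and 0.09.

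Of 30 listed markers of immature neurons, 15 were measured, 4 were at least 1.5-fold lower in w8 and none higher, beside 5.05 and 5.13% of all genes. Their median log2 ratio was −0.29 beside −0.01 over all genes, and 4 of the 15 had a ratio above 1. Igfbpl1, a marker of neuroblasts, had 74 UMIs in w4, or 20.8 CPM (16.3 to 26.1), and 28 UMIs in w8, or 1.22 CPM (0.812 to 1.77), 17-fold lower (10.9 to 27.3). Its ratio of 0.0588 was 0.0949 in female nuclei, and it was at 50.9 CPM in GCyoung of w4. Camk4, a calcium/calmodulin-dependent kinase, was at 138 and 68.1 CPM, a ratio of 0.493 that was 0.271 in female nuclei, and the guidance receptor Robo1 at 248 and 150 CPM. The remaining lower member was Tubb2b, given above, which was lower in GCyoung and RGL of w8 too. Sox11, a transcription factor of newborn neurons, was at 37.9 and 26.0 CPM and did not reach the fold. Calb2, the calretinin gene of young granule cells, had only 13 UMIs in w4 and 7 in w8 (3.65 and 0.305 CPM), and Elavl2, an RNA-binding protein of neurons, 17 and 254 UMIs (4.77 and 11.1 CPM), both with a mean of the weeks below 10 CPM. Neurod1 was listed at 0 in both weeks, as were Rpl13 and Cox4i1, genes that nearly every cell uses, so that its 0 cannot be read as absence.

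Voltage-gated channels set the excitability of a neuron, and the most abundant of them were within the fold. Beside 5.13% of all genes higher and 5.05% lower, of 37 measured potassium channel genes 2 were higher past the fold and 3 lower, with a median log2 ratio of −0.02. Kcnd2, which carries the transient dendritic current, was at 5857 and 5334 CPM, and its auxiliary subunit Kcnip4 at 10016 and 12288 CPM. Kcnip3, another subunit of that family and a calcium-dependent repressor, was at 51.1 and 99.2 CPM, a ratio of 1.94 (1.67 to 2.27) that was 1.70 in female nuclei. Kcnk2, a background potassium channel, was at 98.3 and 58.0 CPM, with a log2 ratio of 0.31 in male nuclei. None of the 11 sodium channel genes measured was past the fold in either direction, and Scn8a was at 517 and 420 CPM. Among 28 calcium channel and pump genes 3 were higher and 3 lower. Of the low-threshold channels, Cacna1g (19.9 and 9.07 CPM) and Cacna1h (108 and 71.4 CPM) were on the lower side, whereas Cacna1i, with a mean of the weeks below 10 CPM, had 14 UMIs in w4 and 256 in w8 (3.93 and 11.2 CPM). The AMPA receptor auxiliary subunit Cacng3 was on the higher side (78.1 and 121 CPM), with a log2 ratio of −0.08 at matched pseudo-time.

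Granule cells are driven through glutamate receptors and inhibited through GABA receptors. Of 24 measured glutamate receptor genes 3 were higher and 2 lower, with a median of 0.05, beside 5.13 and 5.05% of all genes. The AMPA receptor subunits Gria1 (3476 and 3125 CPM) and Gria2 (2511 and 2468 CPM) and the NMDA receptor subunit Grin2a (3670 and 3688 CPM) were the most abundant by the mean of the weeks, and all were within the fold. Grm8, a presynaptic metabotropic receptor, was at 4.21 and 17.1 CPM, with a log2 ratio of −0.61 in female nuclei at matched pseudo-time, and the kainate receptor subunit Grik3 at 36.2 and 55.0 CPM. Grm2 (37.1 and 22.0 CPM) and the AMPA receptor chaperone Cnih2 (55.0 and 31.8 CPM) were lower. Of 15 GABA receptor and scaffold genes 2 were higher and none lower. Gabra2 was at 524 and 827 CPM, but its ratio of 1.58 was 1.13 in female nuclei, and Gabrg3 was at 135 and 208 CPM, with a log2 ratio of −0.31 in male nuclei. The scaffold gephyrin, Gphn, was at 848 and 877 CPM.

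The lists of presynaptic release and postsynaptic scaffold genes had medians of 0.12 and −0.05. Of 37 presynaptic genes 1 was past the fold in each direction, beside 5.13% of all genes higher and 5.05% lower, the vesicle protein genes Sv2c (41.0 and 62.3 CPM) and Vamp2 (29.2 and 15 CPM), and Sv2c had a ratio of 1.07 in female nuclei and a log2 ratio of −0.21 at matched pseudo-time. Of 32 postsynaptic genes 3 were higher and 1 lower, counts near those shares. Lrrtm3, a leucine-rich synaptic organizer, was at 110 and 210 CPM with a ratio of 1.91 that was 1.18 in female nuclei, and the sorting receptor Sorcs2 was at 161 and 84.1 CPM. The abundant Lrrtm4 (12785 and 11150 CPM) and Dlg2 (6311 and 6152 CPM) were within the fold.

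Of 74 measured adhesion and guidance genes, the largest of the neuronal lists, 12 were higher and 5 lower, with a median of 0.10, beside 5.13 and 5.05% of all genes. Beside Ntng1, Cdh18 and Tenm4, the higher members included the cadherin Cdh13 (50.0 and 139 CPM, a ratio of 2.77 that was 2.35 in female nuclei) and the teneurin Tenm2, an abundant transcript at 2303 and 4191 CPM. The netrin receptor Unc5c was at 154 and 302 CPM, a ratio of 1.96 that was 1.14 in female nuclei, with a log2 ratio of −0.29 in female nuclei at matched pseudo-time. The related receptor Unc5d and the guidance ligand Slit2 were higher in all nuclei, with log2 ratios of 0.88 and 0.62 that were −0.34 and −0.01 in female nuclei. On the lower side were Cntnap5b, Robo1, the protocadherin Pcdh15 (184 and 87.7 CPM) and the ephrin Efna5 (36.5 and 17.9 CPM, a log2 ratio of −1.03 that was −1.81 in female nuclei). Of 41 cyclic nucleotide and protein kinase C genes, 5 were higher and 4 lower. Of the calmodulin-dependent phosphodiesterases, Pde1a was at 21.1 and 59.4 CPM, with a log2 ratio of −1.34 in female nuclei at matched pseudo-time, and Pde1c at 18.8 and 2.7 CPM. Adcy8, a calcium-stimulated adenylyl cyclase, was at 22.5 and 62.6 CPM, a ratio of 2.79 that was 1.57 in female nuclei.

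A list of transcription factors held factors that the study names for the mature state and other neuronal factors. Of its 27 measured members, 3 were higher past the fold and 1 (Neurod2) lower, with a median of −0.00. For these and the short lists that follow, the share over all genes was 5.13% higher and 5.05% lower. Glis3, a Krüppel-like zinc-finger factor, was at 292 CPM (274 to 310) and 614 CPM (604 to 624), a ratio of 2.10 (1.98 to 2.24) that was 2.08 (1.92 to 2.27) in female nuclei and 1.03 in GCyoung. Etv1, an ETS factor, was at 23.9 and 57.1 CPM, but at 23.3 and 17.4 CPM in female nuclei, where the interval of its ratio (0.506 to 1.09) included 1. Neurod2, which the study names with Sox4 and Sox11 for the postmitotic state after the progenitors, was at 116 and 62.2 CPM. Nfib stood at 864 CPM in both weeks. Of 12 measured imprinted and nuclear noncoding genes Snhg11 was higher past the fold and A330008L17Rik lower, and Malat1, the most abundant transcript, was at 87941 and 74777 CPM. Of 16 clock genes only Hlf was higher past the fold and Rorb and Cry2 were lower. In female nuclei neither Rorb nor Cry2 was past the fold (log2 ratios of −0.35 and −0.14), and Rorb had a log2 ratio of 0.24 in male nuclei. Of 19 measured activity-regulated genes 2 were higher, Kcnip3 and Sorcs3. Sorcs3 was at 17.7 and 29.5 CPM with a ratio of 0.993 in female nuclei. Of 12 glucocorticoid-responsive genes the metallothionein Mt1 was lower, at 19.7 and 6.76 CPM, and Zfp189 was higher, at 8.99 and 14.1 CPM, a ratio of 1.57 that was 1.04 in female nuclei.

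Genes that mark granule cells of the dorsal dentate gyrus were higher in w8 in 3 of the 4 measured cases, beside 5.13% of all genes, with a median log2 ratio of 1.47, and in the same 3 in female nuclei. Stra6, the retinol transporter, was at 6.74 CPM (4.32 to 10) and 29.3 CPM (27.1 to 31.6). Spata13, an exchange factor for small GTPases, was at 24.7 and 55.7 CPM, and Gsg1l was given above. Lct, the lactase gene, was at 52.5 and 48.0 CPM, with a ratio of 0.649 in female nuclei. None of the 6 ventral markers reached a mean of 10 CPM over the weeks. Their sum was 18.3 CPM in w4 and 27.7 in w8, and with the GCmat1 nuclei lacking a pseudo-time put back it was 20.2 and 41.9 CPM. The dorsal sum was 106 and 206 CPM, and 105 and 191 CPM with those nuclei. Of the ventral markers, in the nuclei with a pseudo-time, Tox3 had 7 UMIs in w4 and 309 in w8 (1.97 and 13.5 CPM). Trhr had 7 and 37 UMIs there (1.97 and 1.61 CPM), and the ventral markers other than Tox3 were at similar or lower levels in w8. The positions of the nuclei along the axis were not recorded in the labels.

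The study named genes that differ between GCyoung and GCmat1 and genes that mark GCmat2, a second mature cluster, and it chose them on these samples, so they are no independent evidence of a direction. Of 29 measured genes on the list of genes higher in GCmat1 than in GCyoung, 10 were at least 1.5-fold higher in w8 than in w4 and none lower, beside 5.13 and 5.05% of all genes, with a median log2 ratio of 0.47 that was 0.44 in female nuclei. They include Ntng1, Car10, Snhg11, Glis3 and Unc5c, and also Zmat4 (179 and 325 CPM, with a log2 ratio of −0.48 in female nuclei at matched pseudo-time) and the lipid scramblase family gene Ano3 (515 and 869 CPM). Trpm3, a cation channel gene, was within the fold at 3123 and 2957 CPM. Of 5 genes on the list of lower ones, Mcmbp and Pcdh15 were past the fold. Of 19 measured GCmat2 markers, 7 were higher and none lower, with a median of 0.49. In female nuclei 3 were higher and 1 lower, and the median was 0.20. Bdnf, the neurotrophin, was at 96.0 and 72.3 CPM, and Nwd2 was at 44.4 and 99.3 CPM, with a log2 ratio of 1.16 that was 0.32 in female nuclei.

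The markers of RGL and astrocytes summed to 2030 CPM in w4 and 1485 CPM in w8, most of it from Slc4a4. Of 24 found in the files, 7 were measured, 3 higher and 2 lower, beside 5.13 and 5.05% of all genes. Of these, Npas3 was higher but had a log2 ratio of −0.45 in male nuclei, and Gpc5 was lower but had one of 0.59 in female nuclei at matched pseudo-time. The glutamate transporter Slc1a3 was at 32.0 and 65.1 CPM, and the bicarbonate transporter Slc4a4, listed as an astrocyte marker, was at 1581 and 976 CPM. After thinning, Slc4a4 was found in 91.0% of GCmat1 nuclei in w4 and 78.2% in w8. The part of astrocyte RNA in the sum was not tested. Of 4 measured progenitor markers Cdk6 was past the fold, at 9.55 and 24.6 CPM.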

How the data were processed

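Nuclear RNA was measured in dentate gyrus nuclei, with 1 pooled library per week, and the w4 and w8 libraries were compared. The authors counted UMIs per feature with STARsolo (2.7.4a, per the submitters' processing notes) on mm10 (GRCm38), and deposited raw counts for 45706 features. A second deposited table holds log2 expression of 13353 genes after doublet removal by the authors, and it names the cluster and pseudo-time of each nucleus. Counts of the GCmat1 nuclei with a pseudo-time were summed per week and expressed as CPM of all UMIs. Positions and chromosomes came from GENCODE M21, which lacked 563 features. The 4171 features of the X and Y chromosomes were left out, apart from 5 transcripts that gave the sex of a nucleus: it was called male when Ddx3y, Uty and Eif2s3y together had more UMIs than Xist and Tsix, and female when they had fewer. Genes needed a mean of 10 CPM over the 2 weeks. Levels carry exact Poisson intervals and ratios exact conditional (Clopper-Pearson) intervals, at 95%. With 1 library per week there was no test and no p-value. A gene was counted when past 1.5-fold.

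The text names the 15 higher and 15 lower genes of at least 20 CPM whose interval bound nearest 1 was farthest from 1, and of each of 33 lists the members past the fold (at most 6) and the 3 of highest level. A few items that this rule or the labels name are not reported here. A few further genes were named after their values were seen: Calb1, Calb2, Neurod1, Sox11, Gad2, Mog, Elavl2, Rpl13, Cox4i1, Tox3, Trhr, Tenm2, Cacna1i, Efna5, Unc5d, Slit2, Rpl19, Rpl37, Ano3 and Bdnf. The members and lists were chosen with earlier results of these data known. The ratio script was tested on simulated counts. Alternatives were TMM and RLE scaling (edgeR 4.0.16), another denominator, mean CPM per nucleus, thinning, the deposited log2 values, other filters and folds, other sets of nuclei, and nuclei matched on pseudo-time. Python 3.11.15, numpy 2.4.6 and scipy 1.17.1 were used.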

Additional observations from a re-analysis of the deposited data

Results flagged for a closer look

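GCmat1 nuclei with a pseudo-time also occurred in the libraries that were not compared, with 17 in w1 and 9 in w2. They held 156160 and 102549 UMIs in all. Ntng1 was at 653 CPM in w1 and 975 CPM in w2, and Mcmbp at 57.6 and 97.5 CPM.

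For 4 of the named genes past 1.5-fold in GCmat1 the w8 over w4 ratio had opposite directions in GCmat1 and GCyoung, with both counting intervals on one side of 1. The ratios in GCmat1 and GCyoung were 1.82 and 0.760 for Zmat4, 0.606 and 1.15 for Robo1, 0.524 and 1.18 for Sorcs2, and 2.03 and 0.603 for Slc1a3. With 1 library per week the difference between the clusters was not tested.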

How the results depend on the processing

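The counts of genes past 1.5-fold (397 higher and 391 lower in w8) depended on the fold, the filter and the nuclei used. They were 100 and 96 at 2-fold, 1110 and 1128 at the lowest fold tried, 646 and 620 with a mean of at least 5 CPM, 227 and 202 with at least 20 CPM, and 2155 and 2918 with no filter. Thinning each nucleus to 2000 UMIs gave 732 and 715, and male nuclei alone, of which w4 had 36, gave 1163 and 1103. Matching on pseudo-time gave 686 higher genes, and the deposited log2 values gave 13 and 7 of 6954 matched genes. Those values are log2 levels of single nuclei with a pseudo-count, a scale unlike that of summed CPM. Their counts therefore cannot be set against 397 and 391. Other settings stayed within 1.5 times: TMM gave 450 and 344, RLE 443 and 347, the denominator of autosomal UMIs without Malat1 396 and 457, and female nuclei alone, filtered on their own mean, 502 and 382. Matching on pseudo-time (686 and 513) and female nuclei alone put 57.2 and 56.8% of the genes past the fold on the higher side, against 50.4%. TMM and RLE scaling put 56.7 and 56.1% there, and the deposited log2 values 65.0%. The share was 42.5% with no filter and 46.4% with the denominator without Malat1. The matched alternatives rest on as few as 18 nuclei of w8 in a bin.

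Of the 30 leading genes, all kept their direction in every alternative that gave a value, with the exception of Zfp804b, whose log2 ratio was −0.06 at the same pseudo-time. Their size was less stable. It moved beyond counting error for 28 of the 30 with the deposited log2 values, where the scale was unlike and 0 stayed the same. At the same pseudo-time it moved for 26, in female nuclei at the same pseudo-time for 25 and in female nuclei for 17. In male nuclei it moved for 13, and after thinning for 10. Among the list members past the fold that the naming rule takes (at most 6 a list), the direction reversed as follows, as log2 ratios. At the same pseudo-time they were −0.08 for Cacng3, −0.21 for Sv2c and −0.27 for Sorcs3. In female nuclei they were 0.17 for Tdo2, −0.42 for Etv1, 0.04 for Kcnq5 and −0.01 for Sorcs3. In male nuclei they were 0.31 for Kcnk2, −0.31 for Gabrg3, −0.38 for Sorcs3, 0.24 for Rorb, −0.45 for Npas3 and 1.72 for Lhfpl3. Hsp90aa1 was at 0.65 after thinning. The cause was not tested.

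Further alternatives were added after the data were seen. Female nuclei at the same pseudo-time gave 1465 and 1117 genes past the fold, and reversed Tdo2 (0.55), Unc5c (−0.29), Zmat4 (−0.48), Etv1 (−1.06), Kcnh3 (−0.16), Grm8 (−0.61), Gabra2 (−0.02), Sv2c (−0.32), Sorcs3 (−2.15), Pde1a (−1.34), Dgkb (−0.34), Gpc5 (0.59), Lhfpl3 (0.04) and Rps24 (0.17). In this setting the bin from 28.5 held 177 nuclei of w4 but only 22 of w8. The reversals carry no interval and may be counting error. Without genes past the fold the same way in both GCyoung and RGL, 376 higher and 295 lower genes were left, and without nuclei whose barcode occurs in both libraries the counts were 400 and 396. No paired analysis was possible because each week is 1 pooled library, and for the same reason no replicate could be left out.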
